A study of Mus musculus with 2 samples.

Results

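Tnxb Fbln2 Ccl11 fibroblasts are a small group of matrix-producing cells in preparations of the mouse dura mater, the tough membrane between skull and brain. Their place in the tissue was not tested. They were chosen by their transcripts: Tnxb, Fbln2 and Ccl11 together had to reach at least 5 UMIs (unique molecular identifiers, each standing for 1 captured transcript). That sum also had to exceed the sum of Mfap4, Fbln7, Gdf10 and Inmt, which marks the main dural fibroblasts, and the sum of Chad, Cilp2, Comp and Matn4, which marks tendon-like ones. Further conditions were at least 10 UMIs of Col1a1, Col1a2, Col3a1 and Dcn, and low sums for arachnoid barrier transporters, interferon-induced genes and complement C1q. The rule took 85 of 7559 retained barcodes, 10 of 2608 in the ligated library and 75 of 4951 in the sham library. Because measured values chose the members, their gene levels are given as a description, with no test.

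Tnxb encodes tenascin-X, a large matrix glycoprotein that sits on collagen fibrils, and Fbln2 encodes fibulin-2, a partner of elastic fibres and basement membranes. Ccl11 encodes eotaxin-1, a chemokine that attracts eosinophils through the receptor CCR3. In many mouse tissues, fibroblasts with Pi16, Dpp4 and Cd34 lie in fascia and in the outer layer of vessels, and are called universal fibroblasts, while fibroblasts with Col15a1 and other basement membrane genes lie deeper in the tissue.

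The study compared female mice whose jugular veins had been tied off 14 days earlier (JVL-14, for jugular venous ligature) with female mice after sham surgery. The dura was peeled off the skullcap and digested with collagenase D and DNase I, material from 2 meninges went into each well, and live single cells were sorted for droplet sequencing of transcript 3′ ends. Each of the 2 groups has 1 library, so no difference has a replicate check and no p-value is given. The sources used here give neither the time since sham surgery nor the number of mice.

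The JVL-14 library held 3004 barcodes and 18796260 UMIs, and the sham library 5495 barcodes and 33996641 UMIs. Of the retained barcodes, 777 in JVL-14 and 1722 in sham passed the collagen and Dcn condition and are called fibroblast barcodes. Those that met the barrier, interferon and C1q conditions but were no member are called other fibroblasts (425 and 752 barcodes). Only 2 barcode sequences occurred in both libraries, and 0 of them belonged to a member. Members had a median of 2781.5 UMIs in JVL-14 (range 1168 to 5450) and 5507 in sham (580 to 19480), while other fibroblasts had medians of 4883 and 5110.5. The JVL-14 members therefore hold only 32259 UMIs in all, against 442555 in the sham members. Brackets after a share or a ratio hold the 95% interval for counting error alone, without the differences between cells, mice and preparations.

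The name holds for most sham members and for few JVL-14 ones. Ccl11 had a UMI in 10 of 10 JVL-14 members, with 4 to 12 UMIs per cell, and in 73 of 75 sham members, with a median of 13. Fbln2 had a UMI in 6 of 10 JVL-14 members (12 UMIs in all) and in 64 of 75 sham members (565 UMIs). Tnxb had 1 UMI in 1 of 10 JVL-14 members, against 313 UMIs in 55 of 75 sham members. The JVL-14 cells thus entered through Ccl11 with some Fbln2, and tenascin-X transcripts, the first marker in the name, were almost lacking in them. As a measure of free RNA, among barcodes rich in C1q, a macrophage marker, Ccl11 had a UMI in 0.257% of 389 in JVL-14 and in 0 of 827 in sham, and Tnxb in 0 of 389 and in 0.242% of 827. Those barcodes had medians of 3505 and 2952 UMIs.

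**Figure D1:**
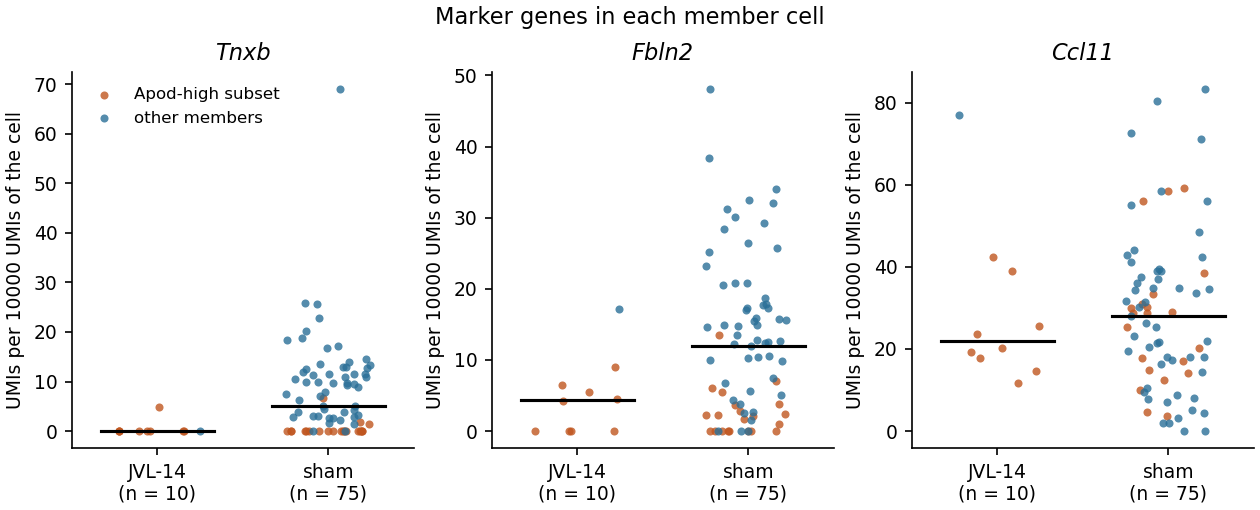
Tnxb, Fbln2 and Ccl11 in each member, in UMIs per 10000 UMIs of the cell (vertical axes), for 10 JVL-14 cells on the left and 75 sham cells on the right of each panel; points are cells, lines are medians, and colour separates the Apod-high subset from the other members. The Tnxb median is 0 in JVL-14 and 5.11 in sham, while the Ccl11 medians are 21.9 and 28.1 and the ranges overlap. These genes chose the cells, so the overlap in Ccl11 is partly set by the rule.

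Members carried a smaller part of each marker's RNA in the JVL-14 library, where each marker was also rarer. Of the Ccl11 UMIs of retained barcodes, members carried 38.8% in JVL-14 and 82.3% in sham. The percentages were 7.59% and 56.6% for Fbln2, and 1.59% and 61.1% for Tnxb. Retained barcodes held 16828083 UMIs in JVL-14 and 31698163 in sham. Ccl11 had 196 and 1486 of these, Fbln2 158 and 998, and Tnxb 63 and 512. Fibroblast barcodes outside the members held 117 and 254 Ccl11, 73 and 168 Fbln2, and 50 and 179 Tnxb UMIs. Non-fibroblast barcodes held 3 and 9, 73 and 265, and 12 and 20. The lower percentages thus show no excess of marker RNA in the JVL-14 barcodes outside the members. At the edge of the rule, cells that met every other condition had a marker sum of 5 in 1 JVL-14 and 3 sham members and of 4 in 1 JVL-14 and 4 sham barcodes just outside. A further 8 JVL-14 and 21 sham fibroblast barcodes reached a sum of 5 but failed another condition. Outside the fibroblast barcodes, 7 retained barcodes in JVL-14 and 13 in sham reached it too.

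Members made up a smaller part of the fibroblasts in the JVL-14 library. They were 1.29% of fibroblast barcodes in JVL-14 (0.619% to 2.35%) and 4.36% in sham (3.44% to 5.43%), a ratio of 0.295 (0.136 to 0.574). Of all retained barcodes they were 0.383% in JVL-14 (0.184% to 0.704%) and 1.51% in sham (1.19% to 1.90%), a ratio of 0.253 (0.117 to 0.492). The JVL-14 members were also shallower than the sham members, as given above, while other fibroblasts were of similar depth in the libraries. In a further setting, barcodes under 2000 UMIs were left out, among them 2 JVL-14 and 4 sham members. The rest were thinned to 2000 UMIs before the rule was applied. Then 6 JVL-14 and 60 sham cells qualified, and the ratio was 0.213 (0.0754 to 0.492). With Tnxb or Fbln2 left out of the marker sum the ratio was 0.289 and 0.281, while with Ccl11 left out 0 JVL-14 and 45 sham cells qualified, and the interval of the ratio ended at 0.189.

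The members were not alike. Clustering all 85 together separated 30 cells from 55 others. Most of the 30 had very high Apod, the gene of the lipid carrier apolipoprotein D. The Apod-high subset held 9 of the 10 JVL-14 members and 21 of the 75 sham members. Apod ran from 188 to 1015 UMIs per 10000 in its JVL-14 cells (median 580) and from 30.5 to 985 in its sham cells (median 402). In the other members it was 0 in the single JVL-14 cell. In the 54 sham cells it had a median of 2.24 and a highest value of 75.6, so the sham ranges overlapped. Tnxb had a UMI in only 1 of 9 JVL-14 and 3 of 21 sham cells of the Apod-high subset. All 30 cells carried Ccl11, which the rule itself brings about in cells with so little Tnxb and Fbln2.

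**Figure D2:**
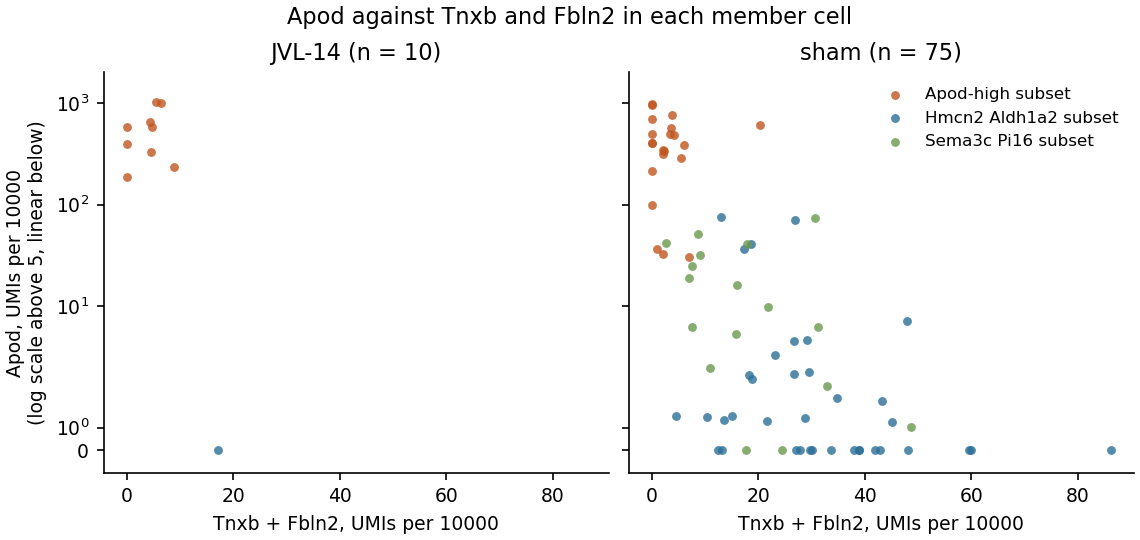
Apod (vertical axis, UMIs per 10000, logarithmic above 5 and linear below) against the sum of Tnxb and Fbln2 (horizontal axis, UMIs per 10000) in each member, JVL-14 in the left panel and sham in the right, coloured by subset. In JVL-14, 9 of 10 cells lie at high Apod and low Tnxb and Fbln2, while 54 of 75 sham cells lie outside that subset.

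The share of Apod-high members differed little between the libraries, with a wide interval, and that of the remaining members differed more than counting error. The Apod-high subset was 1.16% of fibroblast barcodes in JVL-14 (0.531% to 2.19%) and 1.22% in sham (0.756% to 1.86%), a ratio of 0.9498 (0.383 to 2.16). The remaining members were 0.129% in JVL-14 (1 cell, 0.00326% to 0.715%) and 3.14% in sham (54 cells, 2.36% to 4.07%), a ratio of 0.0410 (0.00102 to 0.239). The single JVL-14 cell was shallow, with 1168 UMIs, and carried 9 UMIs of Ccl11, 2 of Fbln2, 3 of Pi16 and 7 of Clec3b. The subsets are clusters built on these cells' own genes, and the difference between the 2 ratios was not tested. Fewer such cells in the tissue and fewer recovered by dissection, digestion and sorting cannot be told apart.

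**Figure D3:**
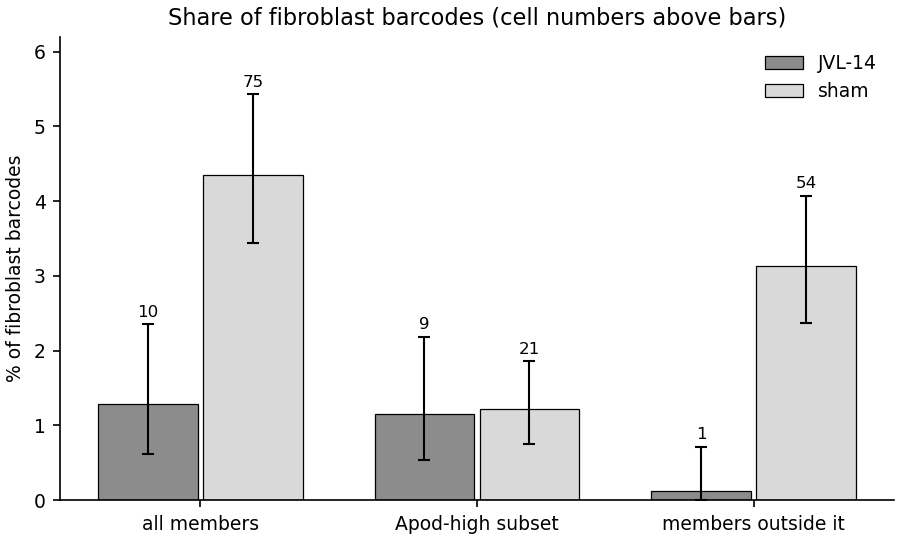
Share of fibroblast barcodes (vertical axis, %) taken by all members, by the Apod-high subset and by the members outside it, with JVL-14 left of sham in each pair; error bars are exact 95% intervals for counting error and numbers are cells. The Apod-high bars are 1.16% and 1.22%, and the bars for the members outside it 0.129% and 3.14%.

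Apod-high members shared a set of leading genes beyond Apod. Spp1, which encodes the secreted phosphoprotein osteopontin, had a UMI in 80.0% of them and in 3.64% of the other members. Trf (transferrin), Cp (the copper ferroxidase ceruloplasmin) and Apoe (apolipoprotein E) were higher too, at 1353, 1315 and 1834 UMIs per 1e+06 UMIs of the group (CPM), against 72.1, 138 and 207 CPM. So were Gpc3, a cell-surface glypican, Tgfbi, a matrix protein induced by TGF-beta, and Nrp2, a receptor for semaphorins and VEGF-C. A list held 13 perineurial and endoneurial genes, which mark cells of nerve sheaths. It summed to 772 CPM in the Apod-high cells of JVL-14 and 769 CPM in those of sham. Other fibroblasts were at 167 and 175 CPM. In JVL-14 members 9 of the 13 genes had 0 UMIs, so the sum rests on few genes. Of the list, the transcription factors Etv1 and Sox9 had a UMI in 4 of 9 JVL-14 cells each and in 15 and 10 of 21 sham cells. Slc2a1, Itgb4 and Cldn1, which mark the perineurial barrier, were at 0 UMIs in the JVL-14 cells and at 40.1, 80.1 and 96.1 CPM in the sham ones. The limit of 3 UMIs for a count of 0 is 96.5 CPM in those JVL-14 cells, so these 0 counts show no difference between the libraries. Too few genes of that list were measured for a median, and the subset is called by Apod alone.

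The other 55 members divided further, but that division depended on the order in which cells entered the clustering. As deposited, 38 cells (1 JVL-14, 37 sham) were led by Aldh1a2, a retinoic acid synthesis enzyme, Nppc, the gene of C-type natriuretic peptide, Hmcn2, a hemicentin of the extracellular matrix, and Ret, a receptor for GDNF-family ligands. The remaining 17 were all sham cells and were led by Sema3c, a secreted semaphorin, Aspn, Pi15 and Igfbp5; Pi16 ranked 7 among their leading genes, and they are called here by Sema3c and Pi16. Tnxb had a UMI in 36 of the 37 sham cells of the first group and in 16 of 17 of the second. With cells ordered by marker sum, the same 30 Apod-high cells came out, and the rest split into 24 and 31. A group with Pi16 among its leading genes came out in either order.

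In the sham library, the members differed from other fibroblasts across much of the transcriptome. Of 6539 measured genes (at least 20 UMIs in both groups together and a mean of at least 20 CPM), 724 were at least 2-fold higher in members (11.1%) and 629 at least 2-fold lower (9.62%). The median log2 ratio over all measured genes was 0.04. These are background shares for the counts that follow, in which the genes of the rule are left out. A gene near 0 in one group passes the limit only if the other group is high, so counts over measured genes lean towards difference. Log2 ratios have 0.5 added to each count.

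Genes of universal fibroblasts had the highest median of the lists with 5 or more measured genes. Of 20 listed genes, 19 were measured, 17 were at least 2-fold higher and 0 lower, and the median log2 ratio was 3.74. Ly6c1, a surface glycoprotein, was at 278 CPM in members and 1.67 CPM in other fibroblasts, a ratio of 166 (78.3 to 422), with a UMI in 31 of 75 members. Dpp4, a cell-surface peptidase, was at 92.6 and 1.67 CPM, a ratio of 55.4 (24.6 to 146). Ackr3, a scavenging receptor for CXCL12, was at 377 and 10.5 CPM (ratio 35.9, 25.6 to 51.2), and Cd55, which shields cells from complement, at 300.5 and 9.79 CPM (ratio 30.7, 21.5 to 44.7). The weakest of the list were Limch1 and Scara5, with ratios of 1.60 and 1.22.

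Their excess lay with the members outside the Apod-high subset. The median log2 ratio of the list was -0.10 in Apod-high sham cells, 3.26 in the Hmcn2 and Aldh1a2 group and 5.00 in the Sema3c and Pi16 group. Pi16 had a UMI in 1 of 21 Apod-high sham cells, 33 of 37 cells of the Hmcn2 and Aldh1a2 group and 17 of 17 of the Sema3c and Pi16 group. Sema3c, itself on the list, was at 661 CPM in the group it leads and at 26.8 CPM in the Hmcn2 and Aldh1a2 group. Summed per cell, the 20 genes had a median of 8.95 UMIs per 10000 in the Apod-high JVL-14 cells and 8.55 in the Apod-high sham cells. They had 137 in the single other JVL-14 cell and a median of 104 in the other 54 sham cells, where the range was 11.2 to 393. The Apod-high cells of both libraries overlapped, and the other sham cells lay mostly above them.

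**Figure D4:**
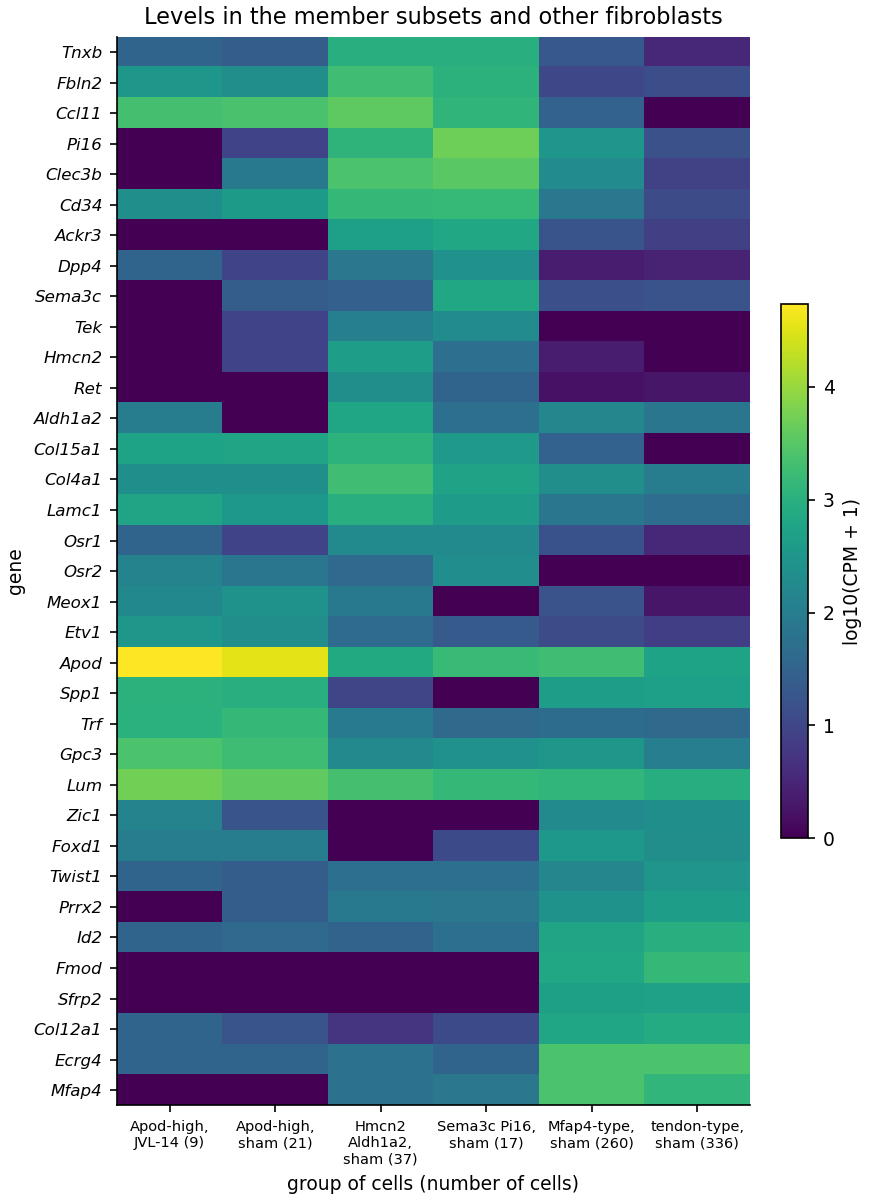
Levels of 35 genes (rows) as log10 of CPM + 1 (colour scale) in Apod-high members of JVL-14 and sham, the Hmcn2 Aldh1a2 and Sema3c Pi16 groups of sham members, and the Mfap4-type and tendon-type fibroblasts of sham (columns, with cell numbers). Pi16, Ackr3 and Sema3c are low or at 0 in both Apod-high columns, Apod is highest there, and Fmod and Sfrp2 are at 0 in all 4 member columns.

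Basement membrane genes were higher in all 3 groups of sham members. Of 21 listed genes, 14 were measured, 13 were at least 2-fold higher and 0 lower, and the median log2 ratio was 2.45. Col15a1, a collagen at the edge of basement membranes, was at 834 CPM in members and 17.2 CPM in other fibroblasts, a ratio of 48.5 (37.6 to 63.3), with a UMI in 62 of 75 members. With each cell of at least 2000 UMIs thinned to 2000, it had a UMI in 62.0% of 71 members and 2.76% of 617 other fibroblasts. The laminin chains Lamc1 (667 and 59.7 CPM) and Lamb1 (346 and 35.6 CPM), the type IV collagen chain Col4a1 (1170 and 146 CPM) and the perlecan gene Hspg2 (497 and 86.5 CPM) followed. Lamb2 was the exception, at 192 and 150 CPM. The median log2 ratio of the list was 1.29 in Apod-high cells, 2.88 in the Hmcn2 and Aldh1a2 group and 1.95 in the Sema3c and Pi16 group. A related list of 12 genes of Col15a1-type fibroblasts had 8 of 10 measured genes at least 2-fold higher and 1 lower, the antioxidant Gpx3, at 872 CPM in members and 5157 in other fibroblasts.

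The fibril and elastic fibre genes went both ways. Of 20 measured genes of elastic fibres and microfibrils, 10 were at least 2-fold higher and 5 lower (median log2 ratio 0.43). Emilin2, an elastic fibre glycoprotein, was at 113 and 2.87 CPM, and Ltbp4, which binds latent TGF-beta, at 1098 and 121 CPM. The fibrillin gene Fbn1 was at 1150 and 158 CPM. On the lower side, the latent TGF-beta binder Ltbp2 was at 2.26 and 118 CPM, the crosslinking enzyme Lox at 13.6 and 146 CPM and the fibulin Fbln1 at 260 and 1003 CPM. Thus fibulin-2 and fibulin-1 ran in opposite directions, and Fbln1 had 0 UMIs in the Apod-high cells of both libraries. Of 14 measured collagen chains, 4 were at least 2-fold higher and 6 lower (median -0.17), with Col5a3 at 499 and 22.0 CPM, and Col12a1, a collagen that coats fibrils in dense tissue, at 9.04 and 710 CPM. Col8a2 was at 9.04 and 430 CPM.

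Small leucine-rich proteoglycans, which space collagen fibrils, went both ways, with more measured genes lower than higher. Dcn, a rule gene, was at 27375 CPM in members and 7245 in other fibroblasts, and Lum at 2504 and 1161 CPM. Of 9 measured genes besides those of the rule, Lum included, 2 were at least 2-fold higher and 5 lower (median -1.47). Fmod, the gene of fibromodulin, had 0 UMIs in the members of both libraries and was at 990 CPM in other sham fibroblasts, against a limit of 6.78 CPM that a count of 0 allows in the sham members. Omd was at 42.9 and 391 CPM, and Bgn at 551 and 1766 CPM. Podn was higher, at 165 and 30.1 CPM.

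Transcription factors that mark position in the embryo separated the members from other fibroblasts. Of 46 listed genes, 24 were measured, of which 6 were at least 2-fold higher and 16 lower, and the median log2 ratio was -1.80. The zinc finger genes Zic1 and Zic4, which act in dorsal head and neural tissue, were at 4.52 and 2.26 CPM in members and 200.4 and 62.8 CPM in other fibroblasts. The forkhead gene Foxd1 was at 29.4 and 246 CPM, Dlx5, a homeobox gene of cranial skeletal cells, at 9.04 and 120 CPM, and Twist1, a regulator of cranial mesenchyme, at 45.2 and 234 CPM. The higher genes included Osr2 (85.9 and 0.717 CPM, ratio 119.8, 38.01 to 607) and Osr1 (136 and 6.93 CPM, ratio 19.6, 12.4 to 31.6), odd-skipped factors of connective tissue, and the homeobox genes Meox1 and Meox2 of somite-derived mesoderm (ratios 13.0 and 9.29). Of 8 listed Hox genes, Hoxd8 had 1 UMI in sham members and 2 in other sham fibroblasts, and the other 7 had 0 in both. The list was lower in each group of members, with medians of -1.48 in Apod-high cells, -2.16 in the Hmcn2 and Aldh1a2 group and -1.04 in the Sema3c and Pi16 group.

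Genes of the BMP and Wnt lists were more often lower than higher in members, and those of the TGF-beta list went both ways. Of 8 measured BMP response genes, 6 were at least 2-fold lower and 0 higher (median -2.07). Id2, a target that blocks basic helix-loop-helix factors, was at 38.4 CPM in members and 709 in other fibroblasts, a ratio of 0.0542 (0.0315 to 0.0869), and Id3 at 508 and 1671 CPM. The BMP antagonist Nog had 0 UMIs in members and was at 103 CPM in other fibroblasts. Of 19 measured TGF-beta genes, 10 were at least 2-fold lower and 7 higher (median -1.46). The contractile genes Acta2 and Tagln were at 0 and 2.26 CPM in members and 328 and 268 CPM in other fibroblasts, and Ccn2 was at 307 and 1655 CPM. Of 10 measured Wnt ligands, inhibitors and targets, 6 were lower and 3 higher, with the Wnt modulator Sfrp2 at 0 and 446 CPM, the Wnt enhancer Rspo3 at 6.78 and 283 CPM, and the ligand Wnt11 at 67.8 and 3.58 CPM.

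Secreted signals of the members differed in kind from those of other fibroblasts. Of 22 measured growth factor and binding protein genes, 9 were at least 2-fold higher and 10 lower (median -0.53). The ligand genes Bmp4 (174 and 11.9 CPM, ratio 14.6, 10.1 to 21.2), Fgf10 (56.5 and 4.30 CPM) and Bmp2 (94.9 and 11.0 CPM) were among the higher ones. The heparin-binding cytokines Mdk (99.4 and 719 CPM) and Ptn (120 and 1028 CPM) and the Axl ligand Gas6 (133 and 1146 CPM) were lower. The receptor gene Axl itself was at 341 and 56.1 CPM.

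Chemokines besides Ccl11 rested on few cells. Of 13 measured chemokine and cytokine genes, 5 were at least 2-fold higher and 3 lower (median 0.35). Ccl2, which recruits monocytes, was at 249 and 18.4 CPM, but its 110 UMIs in sham members lay in 7 cells and 55.5% of them in 1. Ccl7 likewise had 57 UMIs in 7 cells, 70.2% of them in 1. Cxcl14 (682 and 73.3 CPM) lay in 22 members, mostly of the Hmcn2 and Aldh1a2 group (1063 CPM there). Il33, an alarmin that acts on innate lymphoid cells, was spread over 57 of 75 members, at 660 and 213 CPM (ratio 3.10, 2.71 to 3.54). Of the other genes of type 2 immunity, Il13ra1 was at 38.4 and 10.7 CPM, Tslp had 7 UMIs in sham members, and Stat6 was at 33.9 and 35.6 CPM.

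Genes for lymphatic and blood vessel growth gave no common direction. Of 16 measured, 5 were at least 2-fold higher and 5 lower (median -0.15). Angptl1, an angiopoietin-like secreted factor, was at 777 and 77.6 CPM with a UMI in 55 of 75 members, and Adm, the gene of adrenomedullin, at 181 and 20.5 CPM. Vegfc, the main lymphatic growth factor, had 8 UMIs in sham members, at 18.1 CPM against 22.2 in other fibroblasts, and 0 UMIs in JVL-14 members. Angpt2 and Angpt4, ligands of the receptor Tie2, were at 0 and 2.26 CPM in members and 44.4 and 47.1 CPM in other fibroblasts. Tek, the gene of Tie2 itself and best known from endothelial cells, had 44 UMIs in 25 sham members and 0 in the 752 other fibroblasts, at least 139-fold higher against a limit of 3 UMIs. Of a list of 10 blood endothelial genes, sham members held 24 UMIs in 12 of 75 cells, with at most 6 in a cell, and their part in the Tek counts was not tested.

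Fibro-adipogenic and immediate early genes were higher too. Of 13 measured fibro-adipogenic genes, 9 were at least 2-fold higher and 0 lower (median 2.09). They included Ebf2, a regulator of adipose precursors (278 and 23.9 CPM), Hsd11b1, which activates glucocorticoids (127 and 14.1 CPM), and the PDGF receptor gene Pdgfra (662 and 123 CPM), while Pparg and Adipoq of mature fat cells had 0 UMIs in members. Of 21 measured immediate early genes, 14 were at least 2-fold higher and 1 lower (median 1.48), with Atf3 at 380 and 76.5 CPM, Ier2 at 1236 and 271 CPM and Fos at 5391 and 1892 CPM. Immediate early genes respond to dissociation as well as to signals in tissue, and the part of dissociation was not tested. Lists of glucocorticoid-induced, interferon-induced, antigen presentation and hypoxia genes had medians between -0.09 and 0.10, near that of all genes.

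**Figure D5:**
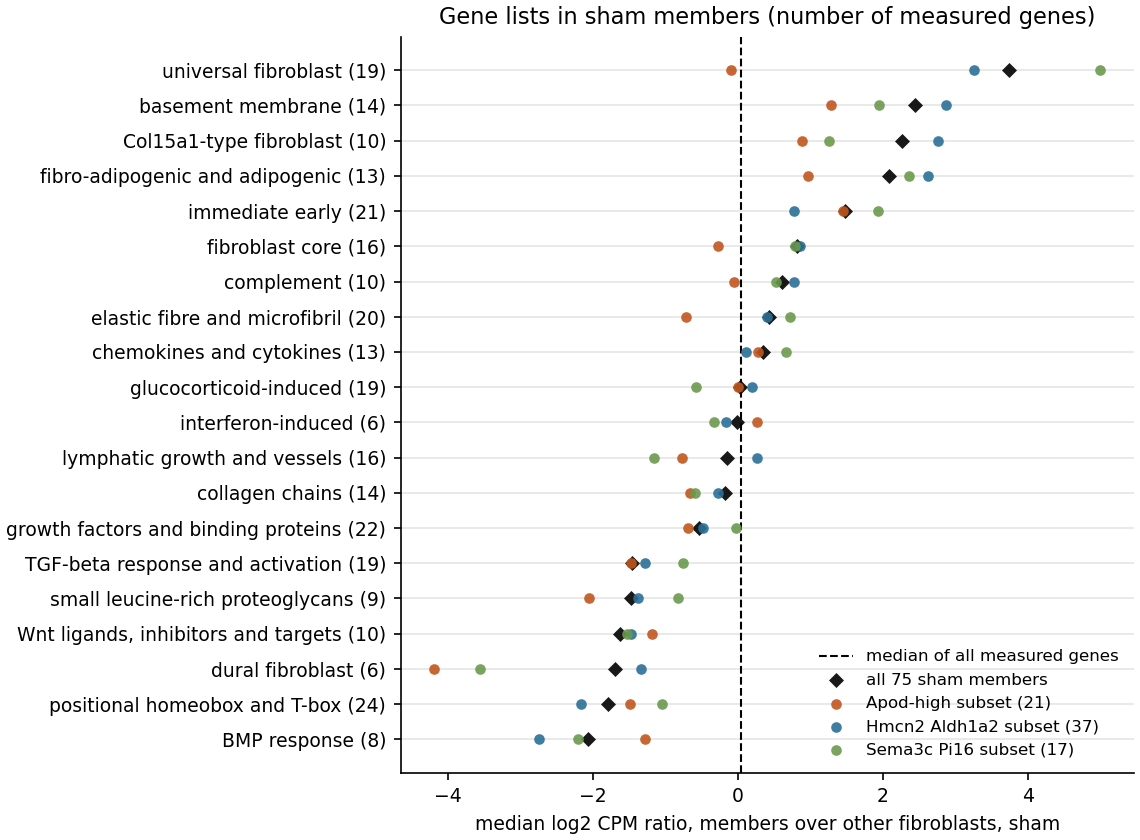
Median log2 CPM ratio of members over other fibroblasts in the sham library (horizontal axis) for 20 gene lists (rows, with the number of measured genes), for all 75 sham members and for their 3 subsets; the dashed line is the median of all measured genes, 0.04. Universal fibroblast genes have a median of 3.74 overall but -0.10 in the Apod-high subset, while basement membrane genes are above the line and positional and BMP response genes below it in all 3 subsets.

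Single genes with the widest gaps included members of these lists and others. Hmcn2 had 103 UMIs in 32 sham members, at 233 CPM, and 2 UMIs in other fibroblasts (ratio 487, 131 to 4076). Ces1d, a carboxylesterase, was at 133 and 0.717 CPM (3 UMIs; ratio 186, 60.6 to 928), Ret at 115 and 0.956 CPM, Ms4a4d at 258 and 3.11 CPM with a UMI in 46 members, and Plau, the gene of urokinase, at 230.5 and 5.26 CPM. Abca8b, a lipid transporter gene, was found in 57 members, at 463 and 14.1 CPM. Lvrn, Prex2 and Ifi207 also ranked here (59.9-, 28.4- and 28.4-fold). In contrast, the olfactory receptor genes Or2y1 and Or6z1 and the calcium-binding protein gene Calb2 ranked high through 1 cell each, and give no property of the group. The lowest genes included the bone genes Bglap and Bglap2 (4.52 and 0 CPM, against 988 and 817 CPM), Alpl (6.78 and 444 CPM), Clec11a (15.8 and 950.3 CPM) and Ecrg4 (45.2 and 2218 CPM). Ptgds, a prostaglandin D synthase gene of the leptomeninges, was at 4.52 and 457 CPM. It had a UMI in only 7.18% of other fibroblasts, and was at 6.81 CPM in the Mfap4-type and 19.5 CPM in the tendon-type ones. Bglap had a UMI in 12.1% of other fibroblasts, so bone-forming cells are among these, and against the Mfap4-type fibroblasts alone, which have Bglap at 5.45 CPM, the medians were 3.23 for the universal, 2.47 for the basement membrane and -1.68 for the positional list.

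Within the 85 members, 10 of 2054 compared genes followed the summed markers most closely. They were Htra3, a secreted protease (Spearman's rho 0.64), Hspg2 (0.60), Col4a1 (0.60), the LIF receptor gene Lifr (0.59), Hmcn2 (0.56), the BMP modulator Bmper (0.55), the collagen genes Col5a3 and Col5a2 (0.54 each), Lhfp (0.53) and Ltbp4 (0.52). The points are cells of 2 libraries that differ in depth and subset, so these values are a description only.

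Only 10 JVL-14 members were found, under the 20 per library set as a minimum, so no count over genes was made between the libraries. Comparing all members would compare subsets: the 20 universal fibroblast genes summed to 1488 CPM in JVL-14 members and 9174 CPM in sham members (ratio 0.162, 0.119 to 0.215), but to 1029 and 1306 CPM within the Apod-high subset (ratio 0.788, 0.522 to 1.16). Within that subset, some lists and genes had ratios near 1 and others did not. Ccl11 ran from 11.7 to 42.4 UMIs per 10000 in the 9 JVL-14 cells (median 20.1). In the 21 sham cells it ran from 3.59 to 59.2 (median 28.7), and the ratio of the sums was 0.924 (0.698 to 1.21). Ccl11 is a rule gene, and these cells reached the marker sum mostly through it, so that ratio partly reflects their selection. Apod summed to 54485 and 34780 CPM (ratio 1.57, 1.48 to 1.66), with overlapping ranges, and 32.6% of the JVL-14 UMIs came from 1 cell. Among the 21 sham cells, 2 held 134 and 279 UMIs of olfactory and respiratory epithelium genes. They had 14495 and 19480 UMIs in all, but only 48 and 71 of the 4341 Apod UMIs. Both cells count in each sham sum of the subset, here and below, and lower its Apod CPM. No ratio was computed without them. The basement membrane list had a ratio of 1.06 (0.872 to 1.28), the BMP response list 0.986 (0.723 to 1.33) and the perineurial list 1.004 (0.613 to 1.58). The dural fibroblast list had a ratio of 2.03 (1.36 to 2.99), on 41 UMIs in JVL-14 and 81 in sham. It includes Ogn, given by itself below, of which a large part in JVL-14 came from 1 cell, and its genes Slit2 and Alpl had 0 UMIs in JVL-14. The ratio is thus no separate sign of dural genes as a set. The small leucine-rich proteoglycans had a ratio of 1.41 (1.21 to 1.64). The metalloproteases and their inhibitors had 0.667 (0.498 to 0.881). The Col15a1-type list had 1.49 (1.41 to 1.57) and includes Apod.

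Glucocorticoid-induced genes were lower in the Apod-high cells of JVL-14. The 21 genes ran from 13.0 to 121 UMIs per 10000 in the JVL-14 cells (median 51.2) and from 33.9 to 266 in the sham cells (median 103), so the ranges overlapped. Summed, they gave 180 UMIs in JVL-14 and 1390 in sham, or 5789 and 11137 CPM, a ratio of 0.520 (0.443 to 0.608). Mt1, a metallothionein gene, had a ratio of 0.405 (0.276 to 0.577) and Cebpd, a C/EBP transcription factor gene, 0.519 (0.378 to 0.698). Mt2 and Cebpb had 0 UMIs in JVL-14 and 38 and 22 in sham, and Fkbp5 0 and 5. Other fibroblasts lay in the same direction, with a list ratio of 0.683 (0.670 to 0.696) and ratios of 0.696 for Mt1, 0.788 for Cebpd, 0.428 for Mt2 and 0.254 for Cebpb. Whether the size of this difference is unlike in Apod-high cells and other fibroblasts was not tested.

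Immediate early genes had a ratio of 0.799 in Apod-high cells (0.737 to 0.865), at 52.1 to 468 UMIs per 10000 in JVL-14 (median 101) and 6.77 to 705 in sham (median 295). Summed ratios of single genes went both ways, with Jund at 0.526 (0.375 to 0.721), Junb at 0.530 (0.397 to 0.696) and Jun at 1.23 (1.03 to 1.46). Per cell, however, Jun had a median of 19.3 UMIs per 10000 in JVL-14 and 35.2 in sham. It had a UMI in 6 of 9 and 19 of 21 cells, with highest values of 184 and 146. The summed ratio of Jun thus shows no rise across the cells. The chemokine list had a ratio of 0.586 (0.441 to 0.766), in which Ccl2 had 0 UMIs in JVL-14 and 106 in 5 sham cells. Per cell, that list ran from 0 to 49.3 UMIs per 10000 in JVL-14 (median 15.03). In sham it ran from 2.34 to 255 (median 17.2), and the highest value came from 1 cell. The ranges overlapped and the medians differed less than the sums, so the summed ratio shows no shift across the cells. Higher were Pdgfra, at 1029 and 465 CPM (ratio 2.21, 1.39 to 3.47), the proteoglycan gene Ogn (2.20, 1.405 to 3.398) and the procollagen enhancer gene Pcolce (2.01, 1.30 to 3.05). These intervals take each UMI as independent, and with 9 JVL-14 cells at a median of 2830 UMIs, against 4925 in the 21 sham cells, 1 cell can decide such a value: 48.6% of the Ogn and 37.5% of the Pdgfra UMIs of JVL-14 members came from 1 cell.

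RNA of other tissues also differed between the libraries. The 11 olfactory and respiratory epithelium genes summed to 1 UMI in JVL-14 members and 444 in sham members, of which 3 cells held 10 or more each, up to 279. In other fibroblasts this list ran the other way, at 2242 CPM in JVL-14 and 189 CPM in sham (ratio 11.8, 11.0 to 12.8). Skeletal muscle genes (16 listed) had a UMI in 1 of 10 JVL-14 and 43 of 75 sham members, with at most 1 and 4 UMIs per cell, and were at 16.2 CPM in JVL-14 and 988 CPM in sham in other fibroblasts. Members held UMIs of the 10 macrophage genes in 0 of 10 JVL-14 and 13 of 75 sham cells, with at most 2. Erythroid genes reached at most 3 and 7 UMIs per cell. The neutrophil and B cell list reached 3 UMIs in JVL-14 and 60 in a single sham cell. Schwann genes reached 10 UMIs in 0 JVL-14 and 3 sham members, and choroid plexus genes in 0 and 4. The osteoblast list did so in 1 JVL-14 and 5 sham members (up to 17 and 30 UMIs). That list includes Spp1, a leading gene of the Apod-high subset. Spp1 gave all 17 UMIs of the JVL-14 cell. In 4 Apod-high sham cells it gave 14 of 14, 11 of 12, 15 of 15 and 30 of 30. The remaining sham cell had 15 UMIs of the list and 0 of Spp1. Without barcodes holding 10 or more UMIs of the olfactory, neutrophil and B cell, muscle, macrophage, endothelial, mural or erythroid lists, which took out 4 sham members, the share of fibroblast barcodes had a ratio of 0.311 (0.143 to 0.607). Without barcodes holding 10 or more osteoblast UMIs, 9 JVL-14 and 70 sham members were left, with a ratio of 0.275 (0.121 to 0.552). This setting took out Apod-high cells through their own Spp1, so it is no check on bone RNA alone. Of the top 5% of doublet scores, 0 JVL-14 and 2 sham members were part, both Apod-high.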

How the data were processed

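Per the file headers, the deposited values are raw counts of UMIs per gene and barcode written by Cell Ranger 8.0.0, for 33696 genes and filtered barcodes, and the build was mm39, per the submitters' processing notes; the sources used here do not name the annotation. Retained barcodes had at least 200 genes and at most 10% of UMIs from mitochondrial genes. Scrublet (scanpy 1.11.5) marked 0.230% of JVL-14 and 0.121% of sham barcodes at its automatic threshold, which is too few to have worked, so no doublets were removed and leaving out the top 5% of scores was an alternative. UMIs were summed per group of cells and given per 1e6 UMIs of the group (CPM). Ratios carry exact conditional binomial 95% intervals, shares exact Clopper-Pearson ones, and a count of 0 a limit of 3 counts. Members were clustered on 2000 variable genes, 15 principal components and 15 neighbours (Leiden, resolution 0.5). The comparison was tested on simulated data. Other settings varied the limits of the rule, each marker, the filters, the depth, the reference cells and the count added. The members, the 40 gene lists and the tests were chosen with earlier results of these data known. Named genes were the 20 with the highest and 10 with the lowest CPM ratio (at least 30 UMIs and 50 CPM in the higher group), examples with wide ratios from each list, the rule's genes, the leading genes of subsets and the 10 genes most like the summed markers; other genes were named after their values were seen. Lists were joined by gene symbol, and for 26 repeated symbols the row with more UMIs was used. No coordinates are given, since the reference at hand is of another build.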

Additional observations from a re-analysis of the deposited data

How the results depend on the processing

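With 1 library per group there is no replicate to leave out. No paired analysis was possible because each group has 1 library. The ratio of the member shares was 0 among fibroblast barcodes and 0 among retained barcodes with Ccl11 left out of the marker sum, where JVL-14 held 0 members; without the Apod-high members, an alternative chosen after seeing the data, it was 0.0410 and 0.0352. A marker sum of at least 10 left 5 JVL-14 and 62 sham members and gave 0.179 and 0.153. In the other alternatives the ratio kept its direction and ran from 0.213 to 0.324 among fibroblast barcodes. Without a filter on genes, 2797 were at least 2-fold higher and 6714 lower in sham members; with at least 50 UMIs and 50 CPM, 344 and 308. The neutrophil and B cell list had a median log2 ratio of -2.14 against other fibroblasts but 0.30 against Mfap4-type fibroblasts, and the osteoblast list -5.81 and -0.69. These lists kept their sign in the alternatives run: universal fibroblast medians ran from 3.23 to 4.16, basement membrane from 2.37 to 2.90, positional factors from -2.19 to -1.10 and BMP response from -2.58 to -1.73. The log2 ratio of Calb2 turned to -0.22 without the top 5% of doublet scores, to -2.96 with a marker sum of at least 10 and to -2.43 without Ccl11 in the sum. Or6z1 turned to -4.03 with a marker sum of at least 10 and to -3.51 without Ccl11, and Or2y1 to -3.54 without it; thinned to 2000 UMIs, Or6z1 was at -0.14 and Or2y1 at -0.91. Each lies in 1 member, so losing that cell or its UMIs turns the sign. The order of cells in the clustering, also examined after seeing the data, left the Apod-high subset as it was. At resolution 1, 28 of its 30 cells stayed together (share ratio 1.05), and with sham cells alone 19 of 21. Gene counts between JVL-14 and sham members were not run in any alternative, since JVL-14 never reached 20 members. Depth limits what can be said of JVL-14: a gene with 0 UMIs in those 10 members is bounded only by the limit of 3 counts in 32259 UMIs.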
